A study of Homo sapiens with 2 samples.

Results

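Coding positions at which a C-to-U change turns a codon into a stop codon were examined in the long-read RBFOX2-INSCRIBE data of HEK293T cells. A position was taken when it lay in annotated coding sequence on the listed strand, when the change of its cytosine gave UAA, UAG or UGA in the Ensembl canonical transcript, and when it was listed in only 1 of the 2 libraries. There were 6106 such stop-creating positions among the 213041 distinct positions of both tables, 3379 for RBFOX2 and 2727 for enzyme-only. A further 300 positions of the same kind were listed in both libraries and were left out. Apart from this removal, the choice rests on sequence and annotation only. The removal lowered read support. With the 300 kept, 13.0% instead of 11.7% of RBFOX2 positions had at least 2 converted reads, and 9.15% instead of 7.74% for enzyme-only. The share with A or U before the cytosine was then 72.5% instead of 71.3%, and 65.6% instead of 63.3%.

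HEK293T is a human embryonic kidney cell line, named HEK293XT among the characteristics in the labels. In both samples methanol-fixed cells were incubated with APOBEC1, a cytidine deaminase, fused to a nanobody against rabbit IgG, and RNA was read as full-length PacBio cDNA. In the RBFOX2 library a rabbit anti-RBFOX2 antibody recruited the enzyme to RBFOX2, which regulates splicing and binds UGCAUG, whereas in the enzyme-only library no antibody was added. With 1 library per group there was no replicate check and no test. The labels number the enzyme-only library replicate 1 and the RBFOX2 library replicate 2, so antibody and replicate cannot be told apart. Every difference below is one between these libraries, and the exact 95% intervals cover counting error only, as no molecular identifiers are given. Reads summed over all listed loci came to 2431345 for RBFOX2 and 2233600 for enzyme-only. Across 3163 loci with a stop-creating position that were listed in both, the median ratio of reads was 1.11.

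APOBEC1 is known in the intestine for a single edit of this kind, in which a glutamine codon of the apolipoprotein B mRNA becomes a stop codon and a shorter protein is made. A single C-to-U change can make a stop codon from only 3 codons, all at their first base. The glutamine codon CAA becomes UAA, the ochre stop, the glutamine codon CAG becomes UAG, the amber stop, and the arginine codon CGA becomes UGA, the opal stop. In living cells a stop codon well upstream of the last exon-exon junction exposes the mRNA to nonsense-mediated decay, the surveillance pathway that recognises exon junction complexes left downstream of a terminated ribosome. Here the enzyme acted after fixation, so the edited mRNAs were not translated.

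The positions with the most converted reads are shown first. Not all of them carry the sequence features described afterwards. Among those shown, only ATP1B3 and DNAJC8 had UGCAUG within 50 nt, and only CALM2 had UGAU shortly 3′ of the cytosine. Each stretch is read 5′ to 3′ from the spliced canonical transcript of GENCODE 44 (hg38) with the convertible codon in capitals, the edited cytosine being its first letter. The 6 leading positions of the RBFOX2 library were the following.
PPIA (chromosome 7, plus strand, 44801411): gctgactgtggaCAActcgaataa
SUMO2 (chromosome 17, minus strand, 75181062): gcctattgtgaaCGAcagggattgtca
CALM2 (chromosome 2, minus strand, 47160796): gaagagtttgtaCAAatgatgacagca
ATP1B3 (chromosome 3, plus strand, 141925561): ttggttgctgttCAGgtcagctttgct
HNRNPDL (chromosome 4, minus strand, 82426124): tacagtggccaaCAGagcacttatggc
DNAJC8 (chromosome 1, minus strand, 28203815): gaaaggaaacgaCAAagggaagaagag
The 6 leading positions of the enzyme-only library were the following.
PDIA6 (chromosome 2, minus strand, 10797744): tgtggtcactgtCAAagattaacacca
HNRNPU (chromosome 1, minus strand, 244858229): gctaagaatggaCAAgatcttggcgtt
CCT6A (chromosome 7, plus strand, 56061798): ttagttaaaattCAAgcagaacattca
FKBP1A (chromosome 20, minus strand, 1375493): gaaggggttgccCAGatgagtgtgggt
COPS3 (chromosome 17, minus strand, 17254924): actctatcattaCAAgatatggcaagt
CCT5 (chromosome 5, plus strand, 10261644): gctggtcttgtaCAGgagatctcattt
In 11 of these 12 stretches the base directly 5′ of the edited cytosine was A or T (U in the RNA), and FKBP1A, with a C, was the exception.

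Stop-creating conversion rested on few reads at most positions. Of 3379 positions in the RBFOX2 library, 2984 rested on 1 converted read, 306 on 2, 73 on 3 or 4 and 16 on 5 or more. The enzyme-only numbers were 2516, 173, 34 and 4. The edit fraction in these tables relates the converted reads of a position to all reads of its gene. Its median over stop-creating positions was 0.467% and 0.498% in the 2 libraries. The tables list no position at or below 0.2%, and from 500 reads of a gene upward 1 converted read is not enough. Most positions rested on the fewest converted reads that could be listed, 3146 (93.1%) and 2603 (95.5%). A fraction over 30% was reached by 6 and 2 positions, none in a gene of more than 3 reads.

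**Figure D1:**
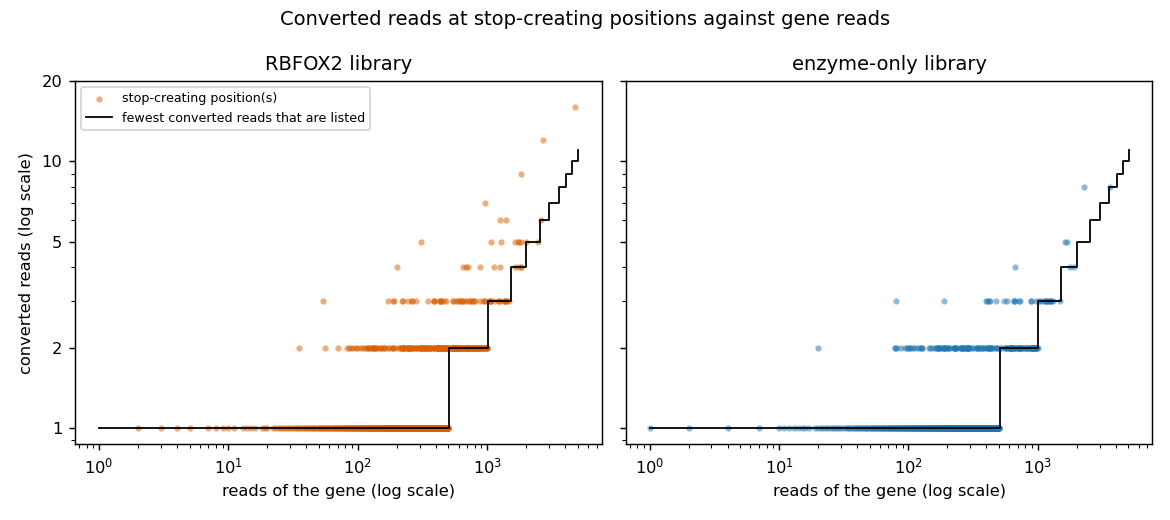
Converted reads of every stop-creating position (y axis, log scale) against the reads of its gene (x axis, log scale) in the 2 libraries, with the line giving the fewest converted reads that the tables list at each depth. Of the positions, 93.1% and 95.5% lie on the line, and the highest reach 16 and 8 converted reads.

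The share of stop-creating positions with at least 2 converted reads was 11.7% (10.6 to 12.8) in the RBFOX2 library. For the other coding positions of that library, which change an amino acid or are synonymous, it was 12.1% (11.9 to 12.4), and the intervals overlap. The enzyme-only shares were 7.74% (6.76 to 8.80) and 9.35% (9.08 to 9.62), and the intervals do not overlap. Another listed coding position lay within 20 nt of 40.1% (38.5 to 41.8) of the stop-creating positions of the RBFOX2 library and of 34.2% of the enzyme-only positions. Other coding positions had such a neighbour in 38.9% (38.5 to 39.4) and 35.6%, and the intervals within each library overlap.

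The best-supported stop-creating position was in PPIA, which encodes the prolyl isomerase cyclophilin A. It had 16 converted reads among 4732 reads of the gene in the RBFOX2 library, a fraction of 0.338%. In the enzyme-only library the gene had 4823 reads, and 10 converted reads were needed for a position to be listed. The codon is number 163 of 165, in the last of 5 exons (44801287 to 44803117), so the stop would remove 3 residues. In the ubiquitin-like modifier SUMO2, codon 50 of 95 in exon 2 of 4 had 12 converted reads among 2678. The calcium sensor gene CALM2 had a pair of such positions, codon 144 of 149 with 9 converted reads and codon 136 with 5, both among 1816 reads and both in CAA codons, the second of them named after its value was seen. At codon 144 UGAU began within 10 nt 3′ of the cytosine, as the mooring sequence of the apolipoprotein B site does. SUMO2 had 2110 reads and CALM2 1271 in the enzyme-only library. Positions listed in both libraries were left out, so the absence of a named position from the other library follows from the choice and is no result.

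The other leading positions of the RBFOX2 library had 5 to 7 converted reads, and those with 5 were the 5 of highest edit fraction among 9 such positions. ATP1B3, a sodium pump beta subunit, had 7 converted reads at codon 234 of 279 among 958 reads. HNRNPDL, HNRNPK and HNRNPA3, members of the heterogeneous nuclear ribonucleoprotein families, had 6 at codon 400 of 420, 6 at codon 391 of 464 and 5 at codon 339 of 378. DNAJC8, a spliceosome-associated J-domain protein, had 6 at codon 191 of 253 and ZRANB2, a splicing factor, 5 at codon 302 of 330. RHEB, the GTPase that activates mTORC1, had 5 at codon 111 of 184, and EIF5, the activator of the eIF2 GTPase, had 5 at codon 128 of 431. POLR2B, the second-largest subunit of RNA polymerase II, stood apart in fraction, with 5 converted reads among 310 (1.61%) at codon 1160 of 1174 in the last exon. The gene had 282 reads in the enzyme-only library. PPIA, HNRNPA3 and SUMO2 have processed pseudogenes, and reads of near-identical copies may not be separated in these tables.

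The leading enzyme-only positions had 3 to 8 converted reads. PDIA6, a protein disulfide isomerase, had 8 among 2265 reads at codon 59 of 440, and HNRNPU, a nuclear matrix-associated RNA-binding protein, had 8 among 3624 at codon 426 of 825. HNRNPU was not in the RBFOX2 table, so its depth there is unknown. The chaperonin subunits CCT6A and CCT5 had 5 at codon 467 of 531 and 4 at codon 360 of 541, and the prolyl isomerase FKBP1A had 5 at codon 66 of 108. COPS3, a subunit of the COP9 signalosome, had 4 among 666 reads, and the peroxiredoxin PRDX4 had 4 among 1891. Of 31 positions with 3 converted reads, the 5 of highest edit fraction were taken, and these lay in NFKB1, NUP85, KRR1, RARS1 and SEC11A. In NFKB1, a precursor of an NF-kappa-B subunit, they were 3 of 80 reads (3.75%), and the gene had 79 reads in the RBFOX2 library.

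Stop-creating positions were listed less often than other coding positions of the same genes. For RBFOX2, 1.47% of the 230131 convertible codons of genes with a listed coding position were listed, against 1.71% of all 3064019 coding cytosines of those genes. For enzyme-only, 1.21% of 224671 convertible codons were listed, against 1.58% of 2999481 coding cytosines. Stop-creating positions were 6.46% (6.25 to 6.67) of the 52322 coding positions of the RBFOX2 library. An even spread over the coding cytosines of each gene gives 7.55%, a ratio of 0.855 (0.828 to 0.884). For enzyme-only they were 5.75% (5.54 to 5.96) of 47464, against 7.36% under an even spread, a ratio of 0.781 (0.753 to 0.810). The intervals of both ratios lie below 1 and do not overlap each other. Positions that change an amino acid had ratios of 0.949 (0.940 to 0.957) and 0.961 (0.952 to 0.970), and synonymous positions 1.09 (1.08 to 1.10) and 1.08 (1.07 to 1.09). First-base cytosines of all other codons were listed at 1.01 (0.998 to 1.03) and 1.03 (1.02 to 1.05) times the expected number. All these comparisons take genes with any listed coding position, since genes with a stop-creating position alone give ratios above 1 by construction (1.48 and 1.49).

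The ratio of stop-creating positions lay nearer to 1 with the neighbouring bases held fixed. Of the coding cytosines followed by U, 24.4 per 1000 were listed for RBFOX2 and 22.3 for enzyme-only, the highest rates by following base. Convertible codons have A or G after the cytosine by definition. Among coding cytosines outside convertible codons, 16.0 and 13.8 per 1000 were listed where A followed, and 14.5 and 13.7 where G followed. With only the base after the cytosine held fixed within each gene, the ratio of listed to expected stop-creating positions rose to 0.956 (0.925 to 0.987) for RBFOX2 and 0.922 (0.889 to 0.956) for enzyme-only. With only the base before it held fixed, the ratios were 0.869 (0.841 to 0.898) and 0.795 (0.766 to 0.824). With both held fixed they were 0.985 (0.953 to 1.02) and 0.950 (0.915 to 0.985). First-base cytosines of other codons then stood at 0.985 (0.970 to 0.999) and 0.989 (0.974 to 1.00), below 1 where they had been above it. Convertible codons were themselves 21.1% of the coding cytosines followed by A in each library, so these last expectations contain part of what they are compared with and lie closer to the observed share than an independent one would.

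**Figure D2:**
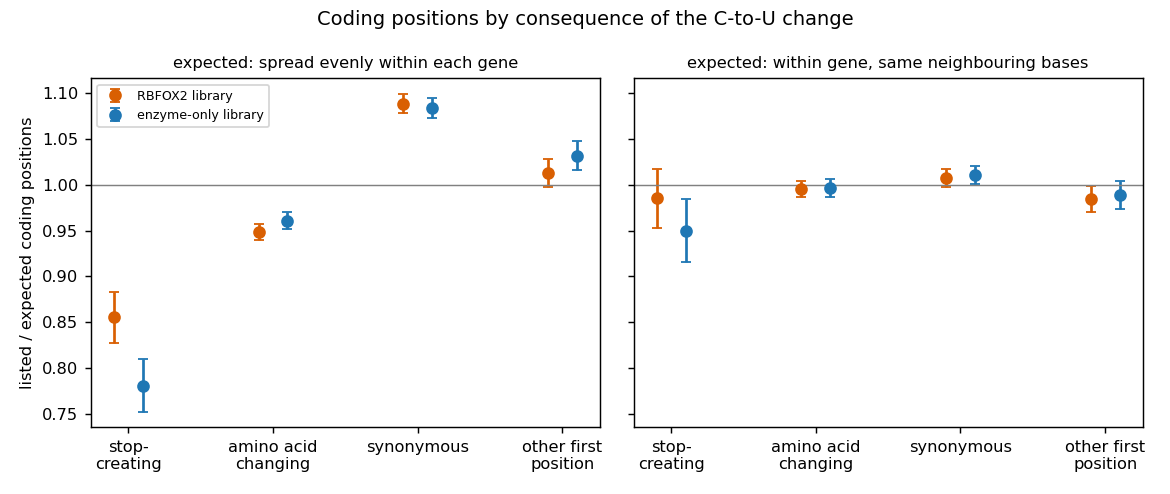
Ratio of listed to expected coding positions (y axis) by the consequence of the C-to-U change in the 2 libraries, with exact 95% intervals, under an even spread within genes (left) and with the neighbouring bases held fixed within genes (right). Stop-creating positions sit at 0.855 and 0.781 on the left and at 0.985 and 0.950 on the right.

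The 3 convertible codons differed in how often they were listed. Of the codons in the RBFOX2 library, 18.7 per 1000 CAA codons (17.6 to 19.9), 12.3 per 1000 CAG codons (11.7 to 12.9) and 19.3 per 1000 CGA codons (17.7 to 20.9) were listed. CAA and CGA thus stood 1.53-fold (1.41 to 1.65) and 1.57-fold (1.42 to 1.73) above CAG, and did not differ from each other beyond their intervals. These rates and folds were not adjusted for gene or for the base before the cytosine. CAA stood above CAG after A (32.5 and 23.5 per 1000) and after U (26.6 and 19.6). After C (6.98 and 7.53) and after G (6.79 and 6.62) their intervals overlap. The enzyme-only rates were 14.3 (13.3 to 15.3), 10.9 (10.3 to 11.4) and 14.6 (13.2 to 16.1) per 1000. In that library CAA stood below CAG after C, at 5.91 (4.65 to 7.42) and 8.87 (8.03 to 9.77). Because CAG is the most frequent of the 3 codons, it still gave most of the stop-creating positions. Amber, ochre and opal positions numbered 1800, 1031 and 548 for RBFOX2 and 1553, 768 and 406 for enzyme-only. Against the convertible codons of the same genes, amber positions were 0.909 (0.880 to 0.938) and 0.944 (0.913 to 0.975) of the expected number, and ochre positions 1.13 (1.07 to 1.19) and 1.10 (1.03 to 1.17). Opal positions were at 1.13 (1.05 to 1.22) for RBFOX2 and 1.06 (0.966 to 1.16) for enzyme-only.

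The base 5′ of the cytosine, which is the third base of the preceding codon, went with larger differences than the codon did. APOBEC1 prefers A or U there. Of the stop-creating RBFOX2 positions, 71.3% (69.7 to 72.8) had A or U before the cytosine, where 47.4% of the convertible codons of the same genes had. The enzyme-only share was 63.3% (61.5 to 65.1) against 44.5%. Over the expected shares these were ratios of 1.51 (1.47 to 1.54) and 1.42 (1.38 to 1.46), and the intervals do not overlap. At positions with at least 2 converted reads the shares were 91.1% against an expected 53.1% and 79.6% against 49.6%, ratios of 1.72 (1.66 to 1.77) and 1.60 (1.48 to 1.71) with overlapping intervals. Other coding positions had A or U there in 67.7% against 45.9% and 61.7% against 44.9%. Their ratios of 1.48 (1.47 to 1.48) and 1.37 (1.36 to 1.38) have intervals that overlap those of the stop-creating positions of the same library.

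The libraries were then compared by base and codon together. CGA after A was the most often listed in the RBFOX2 library, at 43.1 per 1000 (37.6 to 49.1), followed by CAA after A at 32.5 (29.7 to 35.5). For enzyme-only these 2 contexts were listed at 22.0 (18.0 to 26.5) and 22.5 (20.2 to 25.1). After C or G, every codon was listed at 5.91 to 10.4 per 1000 in either library. In all, stop-creating positions were 1.24 times (1.18 to 1.30) as many in the RBFOX2 library as in the enzyme-only library, and other coding positions 1.09 times (1.08 to 1.11). The stop-creating ratio was 1.45 (1.33 to 1.58) where A preceded and 1.34 (1.22 to 1.46) where U preceded. It was 0.921 (0.815 to 1.04) where C and 1.03 (0.903 to 1.18) where G preceded. A split by base was also seen in coding positions of every kind, stop-creating ones included. They numbered 18264 against 14566 after A and 17272 against 14746 after U. After C they numbered 9043 against 10158, and after G 7743 against 7994. CGA after A was listed 214 times against 107, a ratio of 2.00 (1.58 to 2.55), the highest of all codon and base pairs. It lay above the 1.30 (1.15 to 1.47) of CAG after A. CAA after A stood at 1.48 (1.28 to 1.72), with an interval that overlaps both. After U, CGA stood at 1.29 (1.05 to 1.60) and CAG at 1.36 (1.19 to 1.54), so a higher CGA ratio was not seen there. The median ratio of reads in these loci was 1.11. Where the read minimum of the deeper library was applied to both, the ratio of all stop-creating positions was 1.32 (1.25 to 1.39). Coding positions of every kind then numbered 50849 against 43341. The part of depth in the ratios by base was not tested. Stop-creating positions with at least 2 converted reads were 395 against 211, a ratio of 1.87 (1.58 to 2.22). Coding positions of every kind with at least 2 converted reads were also more in the RBFOX2 library, 6339 against 4392.

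**Figure D3:**
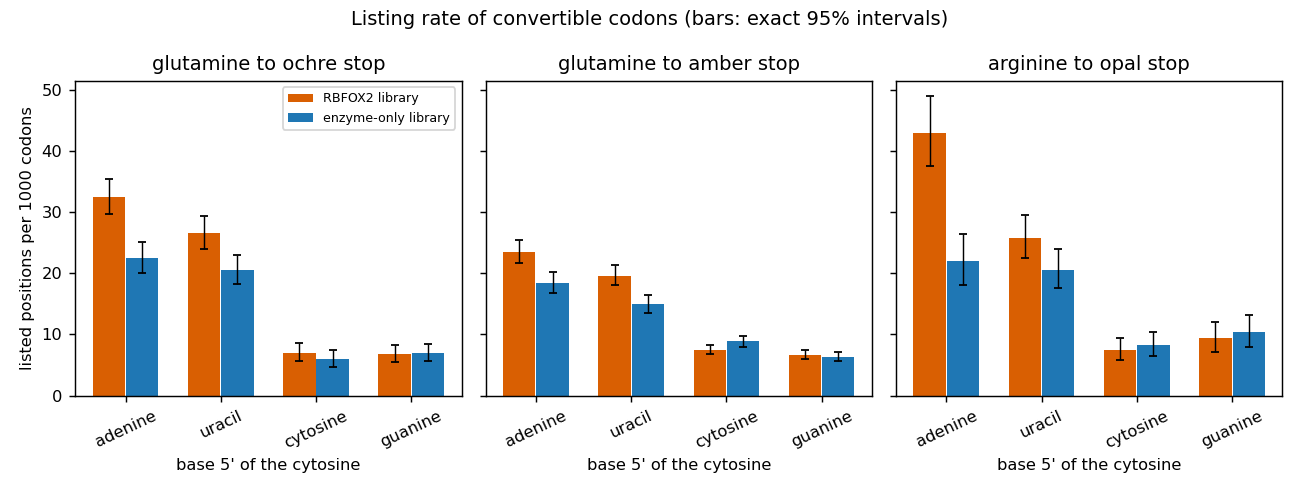
Listed positions per 1000 convertible codons (y axis) by the base 5′ of the cytosine (x axis) for the codons that give the ochre, amber and opal stop, with bars for the 2 libraries and exact 95% intervals. The bars after adenine and uracil stand at 14.9 or higher, those after cytosine and guanine at 10.4 or lower, and the tallest is the opal bar after adenine in the RBFOX2 library, at 43.1.

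Stop-creating positions lay throughout the coding sequence, with more in its 3′ part. With the coding sequence cut into 5 equal parts, the part at the 5′ end held 490 RBFOX2 positions, 0.770 (0.707 to 0.835) of the number expected from the convertible codons of the same genes, and the part at the 3′ end held 943, 1.28 (1.21 to 1.35) times the expected number. For enzyme-only the ratios of these parts were 0.800 (0.730 to 0.875) and 1.28 (1.20 to 1.36). Other coding positions stood, with overlapping intervals, at 0.746 (0.731 to 0.761) and 1.33 (1.31 to 1.35) in the RBFOX2 library and 0.803 (0.787 to 0.820) and 1.29 (1.27 to 1.31) in the enzyme-only library. The median stop-creating position had 58.3% of the protein before it for RBFOX2 and 57.6% for enzyme-only. The last 10% of the codons held 509 and 414 positions, and the first 10% held 217 and 192.

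Relative to the decay boundary, taken as 50 nt upstream of the last exon-exon junction, most positions lay on the side that would expose an mRNA to decay. They were 75.7% (74.2 to 77.1) of the RBFOX2 library and 75.3% (73.6 to 76.9) of the enzyme-only library. The convertible codons of the same genes lay there in 78.6% and 78.7%, so the ratios were 0.963 (0.944 to 0.981) and 0.957 (0.936 to 0.978). Other coding positions stood at 0.952 (0.947 to 0.957) and 0.960 (0.955 to 0.965), with intervals that overlap those of the stop-creating positions. The last exon held 602 and 516 stop-creating positions, 1.16 (1.08 to 1.25) and 1.21 (1.12 to 1.31) times the expected number. A further 183 and 138 lay within 50 nt upstream of the last junction, with ratios of 1.10 (0.948 to 1.26) and 1.02 (0.860 to 1.20), and 37 and 20 lay in single-exon transcripts.

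**Figure D4:**
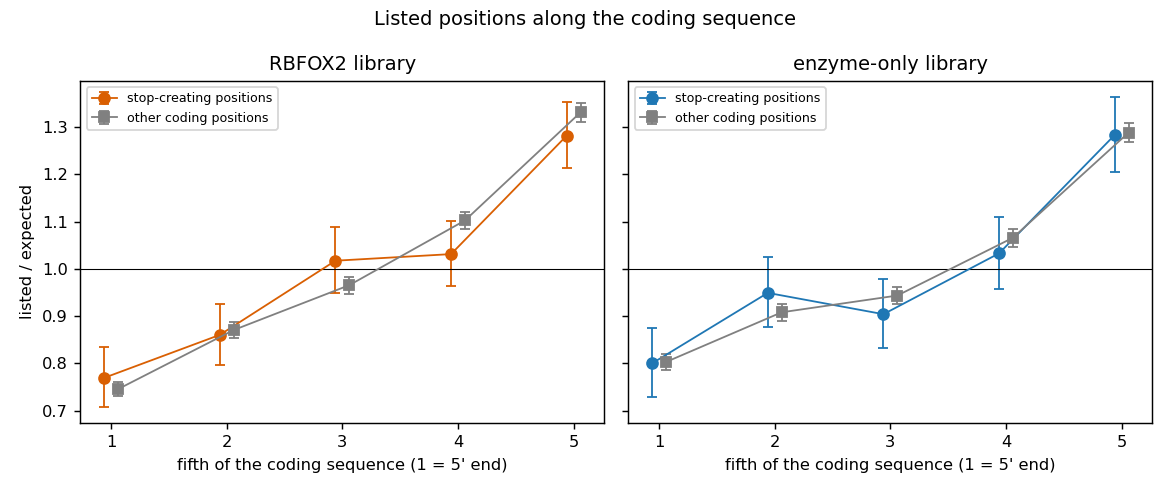
Ratio of listed to expected positions (y axis) in 5 equal parts of the coding sequence from the 5′ end (x axis) for stop-creating positions (circles) and other coding positions (squares) of the 2 libraries, with exact 95% intervals. From the first to the last part, the stop-creating ratios go from 0.770 to 1.28 (RBFOX2) and from 0.800 to 1.28 (enzyme-only).

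The question of whether stop-creating conversion was directed by RBFOX2 was addressed through UGCAUG in the spliced transcript. For RBFOX2, 115 of 3379 stop-creating positions had the whole motif within 50 nt, 3.40% (2.82 to 4.07), against 2.24% of the convertible codons of the same genes, a ratio of 1.52 (1.26 to 1.82). For enzyme-only, 59 of 2727 had it, 2.16% (1.65 to 2.78) against 1.97%, a ratio of 1.10 (0.838 to 1.41). Divided by each other, the ratios of both libraries gave 1.38 (1.00 to 1.93), with the lower bound at the edge of no difference. Other coding positions stood at 1.24 (1.18 to 1.30) and 0.952 (0.892 to 1.01), a quotient of 1.30 (1.20 to 1.41). These quotients were computed after the ratios had been seen. At stop-creating positions with at least 2 converted reads the RBFOX2 ratio was 1.90 (1.23 to 2.79), from 24 positions, and the enzyme-only ratio was 0.684 (0.142 to 1.97), from 3. With a window of 20 nt the RBFOX2 interval included 1, at 1.43 (0.976 to 2.01), and enzyme-only stood at 1.20 (0.714 to 1.90). With a window of 200 nt the ratios were 1.14 (1.03 to 1.26) for RBFOX2 and 1.08 (0.960 to 1.22) for enzyme-only. In both windows the intervals of the libraries overlap.

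Of the RBFOX2 positions near the motif with at least 2 converted reads, 5 are printed in which codon and motif fit into one short stretch, to show their spacing. They were chosen after their values were seen. Both codon and motif are in capitals.
DNAJC8, codon 191 (chromosome 1, minus strand, 28203815): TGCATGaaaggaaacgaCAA
DNAJC8, codon 190 (chromosome 1, minus strand, 28203818): TGCATGaaaggaaaCGA
PWP1, codon 171 (chromosome 12, plus strand, 107696482): TGCATGtttataatCAA
VRK1, codon 253 (chromosome 14, plus strand, 96856177): TGCATGatcCAA
C6orf62, codon 156 (chromosome 6, minus strand, 24708875): CAGtttcTGCATG
In DNAJC8 a single UGCAUG stood 8 nt 5′ of CGA and 11 nt 5′ of the CAA next to it. The adjoining codons had 3 and 6 converted reads among 1397, and the gene had 1088 reads in the enzyme-only library. PWP1, a WD-repeat protein of ribosome biogenesis, had 3 converted reads among 428 at codon 171 and also 3 at codon 159, with the same UGCAUG between both codons. Positions that share 1 motif, as in DNAJC8 and PWP1, were counted separately in the ratios above and their intervals. The kinase gene VRK1 had 2 among 559 and C6orf62 had 2 among 248. In ATP1B3 the motif lay 29 nt from the leading CAG codon, and a second position of that gene, codon 152, also had the motif within 50 nt and 3 converted reads.

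**Figure D5:**
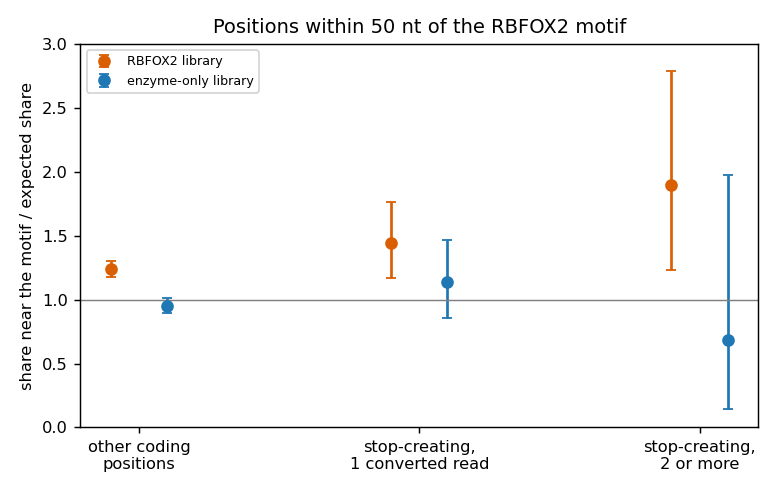
Share of positions with the RBFOX2 motif within 50 nt, divided by the share expected from the same genes (y axis), for other coding positions and for stop-creating positions with 1 or with at least 2 converted reads in the 2 libraries, with exact 95% intervals. The RBFOX2 library is at 1.24, 1.44 and 1.90, and the enzyme-only library at 0.952, 1.14 and 0.684.

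The start of the APOBEC1 mooring sequence was then sought, as UGAU beginning 3 to 10 nt 3′ of the cytosine on the same strand. It was found at 3.37% (2.79 to 4.04) of the stop-creating positions of the RBFOX2 library and 3.15% (2.53 to 3.88) of those of the enzyme-only library. The convertible codons of the same genes held it in 3.49% and 3.43%, so the ratios were 0.968 (0.801 to 1.16) and 0.919 (0.737 to 1.13), both with intervals that include 1. Other coding positions were at 1.06 (1.02 to 1.11) and 1.10 (1.05 to 1.15).

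Stop-creating positions were spread over many genes. RBFOX2 positions fell in 2173 of 7121 genes with a coding position, with 1 position in 1473 genes, 2 in 415, 3 to 5 in 265 and 6 or more in 20. Enzyme-only positions fell in 1946 of 7044 genes, with 1 in 1416, 2 in 364, 3 to 5 in 158 and 6 or more in 8. Both libraries had such a position in 830 genes, which is 38.2% of the RBFOX2 genes and 42.7% of the enzyme-only genes. Of the genes with any coding position, 5908 were in both libraries, 83.0% and 83.9%.

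The genes with the most positions in the RBFOX2 library had 8 to 11. Expected numbers follow from all coding positions listed in a gene, which were themselves more in the RBFOX2 library for 5 of the 6 genes. DCAF13, a WD-repeat factor of ribosome biogenesis, had 11 among 23 convertible codons at 379 reads, and 2 in the enzyme-only library at 287 reads, where 4.74 and 1.88 were expected. Of its 11, the 6 codons from 375 to 416 lay together in exon 10. TSR1, needed for maturation of the small ribosomal subunit, had 11 of 50 at 417 reads, and 5 in the enzyme-only library at 420, against 5.33 and 2.81 expected. POLR2B had 11 of 67 and 2, at 310 and 282 reads, with codons from 90 to 1160, and 8.48 and 2.48 were expected from its 82 and 24 coding positions. CCAR1, a transcription coactivator, had 10 of 111 and 3, at 390 and 372 reads, against 7.09 and 3.96 expected. HAT1, a histone acetyltransferase, had 8 of 25 and 0, at 281 and 211 reads, all from codon 248 of 419 onward, against 4.95 and 1.73 expected. CCZ1, part of the exchange factor for RAB7, had 8 of 21 and 1, at 361 and 382 reads, against 2.22 and 2.58 expected, but has a near-identical copy, so its positions are uncertain. All 6 genes were under the 500 reads at which a single converted read is no longer listed, in both libraries.

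The gene with the most stop-creating positions in either library was TFG, a factor of export from the endoplasmic reticulum, in the enzyme-only library. It had 13 among 60 convertible codons at 487 reads, from codon 4 to codon 390 of 400, and 4 in the RBFOX2 library at 478 reads. An even spread of its coding positions would have given 9.28 and 7.11. The other genes had 6 each, given before the RBFOX2 number, and were 5 of 7 genes with that number. RARS1, an arginyl-tRNA synthetase, had 6 and 4 at 407 and 428 reads, COPS5, the catalytic subunit of the COP9 signalosome, had 6 and 5 at 440 and 491, and ATRAID had 6 and 2 at 379 and 438. For TARS1, a threonyl-tRNA synthetase, 6 stood against 0 and for the splicing factor BCAS2 6 against 1, but these 2 genes had 505 and 598 reads in the RBFOX2 library, where 2 converted reads were needed, and 463 and 430 in the enzyme-only library, where 1 was enough. An even spread gives 3.28 and 4.51 for RARS1, 2.75 and 4.95 for COPS5 and 2.49 and 2.05 for ATRAID. For TARS1 it gives 6.20 and 0.269, from 69 and 3 coding positions, and for BCAS2 2.38 and 0.476. All these genes were picked for their number of positions, so the numbers are a description.

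Of the genes the study discussed for RBFOX2, only OGT and DEPDC1 had a stop-creating position. OGT, the O-GlcNAc transferase, had 3 in the RBFOX2 library, at codons 659, 834 and 849 of 1046 with 1, 2 and 1 converted reads among 214, while the enzyme-only library listed none at 189 reads. DEPDC1, a mitotic regulator, had 1 at codon 739 of 811 with 1 converted read among 346, while the enzyme-only library listed none at 370 reads. Coding positions of every kind were 12 and 1 in OGT and 7 and 1 in DEPDC1. From these an even spread gives 0.994 and 0.0828 for OGT, and 0.808 and 0.115 for DEPDC1. The enzyme-only library thus had few coding positions in either gene that could have been stop-creating. DCUN1D4, with 11 convertible codons, and RBFOX2 itself, with 27, had coding positions but no stop-creating one. APP and PKM had no coding position listed in 1 library alone.

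Among gene groups, those that read stop codons or survey them were described by their counts. In nonsense-mediated decay and the exon junction complex, 7 of 19 genes had 10 stop-creating positions in the RBFOX2 library and 4 genes had 8 in the enzyme-only library, where an even spread within genes gives 11.8 and 7.58. EIF4A3, the helicase core of the junction complex, had 0 and 4. Shares of convertible codons here take only the genes of a group that had a listed coding position in the library concerned. They were 1.07% and 1.33% for this group, where all such genes had 1.47% and 1.21%, and the shares of the groups below were taken in the same way. In translation termination and ribosome rescue, 5 of 9 genes had 9 positions and 4 had 5, against 11.1 and 9.53 under an even spread, and 3.47% and 1.48% of their convertible codons were listed. ETF1, the release factor that recognises all 3 stop codons, had 3 and 1, and HBS1L, which acts on stalled ribosomes, had 3 and 2. Of 12 genes of the RBFOX family and its partner complex LASR, 3 had 7 positions in the RBFOX2 library, 5 of them in HNRNPH2, and none had one in the enzyme-only library, against 5.06 and 2.62 under an even spread. The share of convertible codons, in the genes with a listed coding position, was 4.67% for RBFOX2, while all 12 genes together hold 272 convertible codons as counted. MATR3, with 895 codons, kept only 1 of these, because each coding position was assigned to 1 gene. The group counts therefore in effect leave MATR3 out. HNRNPH2 had 418 reads in the RBFOX2 library, and each of its 5 positions rested on 1 converted read. Of 9 genes with polyglutamine repeats, which are rich in CAG codons, ATXN1 had 1 position in the RBFOX2 library and ATXN3 had 1 in the enzyme-only library, against 3.89 and 1.80 under an even spread, or 0.167% and 0.209% of their convertible codons.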

How the data were processed

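Edit tables of 2 long-read libraries were used. PacBio reads were aligned to hg38 and C-to-U edits called by code of the authors. The kit in the study's methods differs from that in the labels, so the run described there may be another one. The authors deposited, for each position, its count of converted reads, the count of reads of its gene and the quotient of both as an edit fraction. Of repeated rows for one position, 105 and 92 were dropped. The deposited table of isoform models, with exon coordinates and no expression values, served in an alternative only.

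Coding cytosines came from Ensembl canonical transcripts of protein-coding genes in GENCODE 44, each assigned to 1 gene. All 57637 and 52779 listed positions in their coding sequence were cytosines, and positions in both libraries were removed. The mitochondrial code was used for mitochondrial genes. Expected shares are exact sums over genes (no shuffling), with Clopper-Pearson 95% intervals (Python 3.11.15, scipy 1.17.1). Calculations were tested on simulated positions.

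Positions named were the 12 with the most converted reads per library (ties by edit fraction, leaving out 4 and 26 tied positions), and genes were the 6 with the most stop-creating positions (ties by positions per convertible codon, leaving out 1 and 2 tied genes), the genes the study discussed and 4 lists. Members and lists were chosen with earlier results of these data known. The comparisons by neighbouring base and of neighbouring positions were added after seeing the values. The removal of dbSNP variants in the study was not repeated. The alternatives were a minimum of 2 converted reads, genes of at least 20 reads, shared positions kept, isoform exons, any coding transcript, other windows and boundary, genes with a stop-creating position, fractions over 80% removed and a common read minimum.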

Additional observations from a re-analysis of the deposited data

How the results depend on the processing

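No paired analysis was possible because each group held a single library. Among 132 recomputed values 106 were the same within their intervals (counts within 1.5 times), 23 moved and 3 changed side. Restricted to genes with a stop-creating position, the listed over expected share changed side, to 1.48 (RBFOX2) and 1.49 (enzyme-only). With the neighbouring bases held, it changed side to 1.51 for enzyme-only. For RBFOX2, whose main interval had included 1, it moved to 1.45. This follows from the construction, since only genes with such a position enter. There CAA stood 1.31-fold and 1.15-fold above CAG.

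With at least 2 converted reads required, 395 and 211 stop-creating positions remained among 6339 and 4392 coding positions. The library ratio of the stop-creating positions was 1.87. The listed over expected share was then 0.825 and 0.672, and 0.939 and 0.885 with the neighbouring bases held. In the RBFOX2 library CAA and CGA stood 2.36-fold and 2.21-fold above CAG, and in the enzyme-only library CGA stood 1.05-fold. The shares with A or U before were 91.1% and 79.6%, the motif ratios 1.90 and 0.684, and the enzyme-only boundary ratio 0.978. With shared positions kept, the shares with at least 2 converted reads were 13.0% and 9.15%, and 65.6% of enzyme-only positions had A or U before. A motif window of 200 nt gave 1.14 in the RBFOX2 library, beside 1.08 in the enzyme-only library. The common read minimum gave a library ratio of 1.32. Its use for the shares and the motif was chosen after seeing the data. The cause was not tested in these cases. Genes of 500 reads or more list no single converted reads, so depth limits which codons could be listed.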
